A study of Mus musculus with 12 samples.

Results

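The receptors for the GDNF family and for the neurotrophins comprised 7 genes, taken by symbol from 29641 genes listed in either organ: Gfra1, Gfra2, Gfra3, Ret, Ntrk2, Ntrk3 and Ngfr. They were chosen with their mutant and heterozygote values in both organs known. Those values are therefore given as a description and carry no test. Ribosome-bound RNA was pulled down with an HA antibody from inner ears of mice at postnatal day 0 to 1, in 12 libraries. Mutants were Gfi1Cre/Cre;RiboTagHA/HA and heterozygotes Gfi1Cre/+;RiboTagHA/HA, with 3 libraries per genotype in the cochlea, the organ of hearing, and 3 in the vestibule, the organ of balance. All animals carried the RiboTagHA/HA allele, in which Cre switches on an HA-tagged ribosomal protein, and at least 1 Gfi1 copy with Cre, so no group had both Gfi1 copies unmodified. Cre came from the Gfi1 locus, known to be active in hair cells and in blood-derived cells. Mutants carry 2 Cre copies and heterozygotes 1, so Cre dose and the loss of unmodified Gfi1 cannot be told apart. The organs were processed with different library kits, so levels were not compared between them.

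GDNF family ligands bind a GFRα protein, anchored to the outer membrane by a lipid, and this complex activates the receptor tyrosine kinase RET. GFRα1 prefers GDNF, GFRα2 neurturin, GFRα3 artemin and GFRα4 persephin, and NCAM can replace RET as a GDNF co-receptor. Neurotrophins bind the TRK kinases, TRKB (Ntrk2) for BDNF and NT-4 and TRKC (Ntrk3) for NT-3, and all of them bind p75 (Ngfr), which has no kinase. In the inner ear, BDNF and NT-3 from the sensory epithelium support the ganglion neurons that carry TRKB and TRKC and innervate hair cells.

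Values were CPM, the reads of a gene as a share of the library total on a common scale. A single read stood for 0.107 to 0.133 CPM in cochlear and 0.0340 to 0.0528 CPM in vestibular libraries. Genotype differences are mutant minus heterozygote, as log2(CPM + 1), each with a standard error (SE) from limma, which fits a linear model to every gene and shares information on spread between genes. That scale understates the change of low genes. The test took genes that reached 1 CPM in at least 3 of 6 libraries within an organ, which kept 5 of the 7 receptors in the cochlea and 6 in the vestibule. A call means an adjusted p under 0.05 by the method of Benjamini and Hochberg (BH). Hair cell markers were detected in every group, 15 of 15, and summed to 3672 to 4399 CPM in mutant and 5671 to 6871 CPM in heterozygous cochleae, and 12278 to 12944 CPM in mutant and 11158 to 12621 CPM in heterozygous vestibules. Transcripts known from other cell types were present too. In the cochlea 12 macrophage markers summed to 2753 to 3357 CPM in mutants and 2252 to 2840 CPM in heterozygotes, which overlapped. Limma called 2 of the 12 higher there, Lyz2 (0.69) and Fcgr3 (0.71), and 0 lower, beside 1.9% of all genes higher and 2.52% lower. EdgeR called 1 higher and DESeq2 2, beside 301 and 359 of all 17985 genes tested. Cd68 (-0.07) and Adgre1 (-0.11) went the other way and were not called. Gfi1, a zinc finger repressor gene, was at 64.3 to 75.1 CPM in mutant and 106 to 165 CPM in heterozygous cochleae, and at 198 to 236 CPM in mutant and 450 to 534 CPM in heterozygous vestibules, so it fell in both (-0.90, SE 0.16, limma BH-adjusted p = 0.00355 for cochleae; -1.19, SE 0.13, 0.00234 for vestibules). Libraries with the same replicate number deviated together, and both vestibular replicate 1 libraries stood apart on the first principal component, at 29.2 and 51.7 against -36.0 to -4.96 for the others.

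Gfra1 is shown with its promoter because it had the largest difference of the 7 genes in each organ, and Ntrk2 because it was lower in the vestibule. The RefSeq table matched 3 of the 7 genes, the third being Ngfr. The windows run from 250 bases before to 50 bases after a start listed in RefSeq on GRCm38.p6. For Gfra1 that start is not the outer end of the GENCODE M21 gene (58455909), and its whole window lies inside that gene. AATC, the core of the known GFI1 site, or its reverse complement GATT is in capitals.
Gfra1, chr19:58455349-58455648, minus strand: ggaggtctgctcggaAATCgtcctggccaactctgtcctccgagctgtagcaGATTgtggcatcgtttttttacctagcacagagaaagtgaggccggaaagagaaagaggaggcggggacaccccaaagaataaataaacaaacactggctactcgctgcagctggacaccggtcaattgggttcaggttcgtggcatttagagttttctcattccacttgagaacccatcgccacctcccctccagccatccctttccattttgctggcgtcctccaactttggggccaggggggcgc
Ntrk2, chr13:58806319-58806618, plus strand: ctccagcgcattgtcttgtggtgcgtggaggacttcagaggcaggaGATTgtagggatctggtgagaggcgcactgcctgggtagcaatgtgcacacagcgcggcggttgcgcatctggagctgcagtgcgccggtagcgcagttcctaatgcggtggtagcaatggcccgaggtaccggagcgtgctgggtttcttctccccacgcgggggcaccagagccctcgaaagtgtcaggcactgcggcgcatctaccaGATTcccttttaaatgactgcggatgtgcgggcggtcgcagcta
Each window held 2 such matches and the Ngfr window 0. At least 1 match was present in 73.1% of 32851 promoter windows of that length, and at least 2 in 44.5%. The longer form AAATCAC, which contains the core, was in none of the 3 windows on either strand and in 3.20% of all windows. These letter matches are descriptions and no binding was measured.

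Gfra1 was higher in mutants in both organs. The gene encodes the GDNF-binding co-receptor (chromosome 19, 58235604 to 58455909, GENCODE M21 on GRCm38). In the cochlea it was at 88.7, 95.6 and 96.0 CPM in mutants, against 18.5, 20.7 and 21.3 CPM in heterozygotes, in the order of replicates 1, 2 and 3. The lowest mutant library lay above the highest heterozygous library, and the replicates of each genotype were close together. Means were 93.5 ± 4.10 CPM in mutants and 20.2 ± 1.43 CPM in heterozygotes (SD, n = 3 each), a ratio of 4.63 and a log2 difference of 2.16 (SE 0.14). In the vestibule Gfra1 was at 72.1, 94.5 and 82.6 CPM in mutants, against 17.7, 29.9 and 27.0 CPM in heterozygotes. The groups again did not overlap. The vestibular means were 83.1 ± 11.2 CPM in mutants and 24.9 ± 6.36 CPM in heterozygotes (SD, n = 3 each), a log2 difference of 1.72 (SE 0.21). Within the 3 same-numbered pairs the log2 difference ran from 2.12 to 2.20 for cochleae and from 1.58 to 1.97 for vestibules. Exons of Gfra1 share 7.60% of their bases with Gm16277. That gene was at 0.0410 to 0.475 CPM in mutant and 0 to 0.268 CPM in heterozygous vestibules. No gene was listed under that symbol in the cochlea. Of 5556 stretches of 50 bases in Gfra1 transcripts, 370 (6.66%) were shared with Gm16277 and none with transcripts of any further gene. In such libraries, fewer cells of a type and less RNA per cell cannot be told apart.

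**Figure D1:**
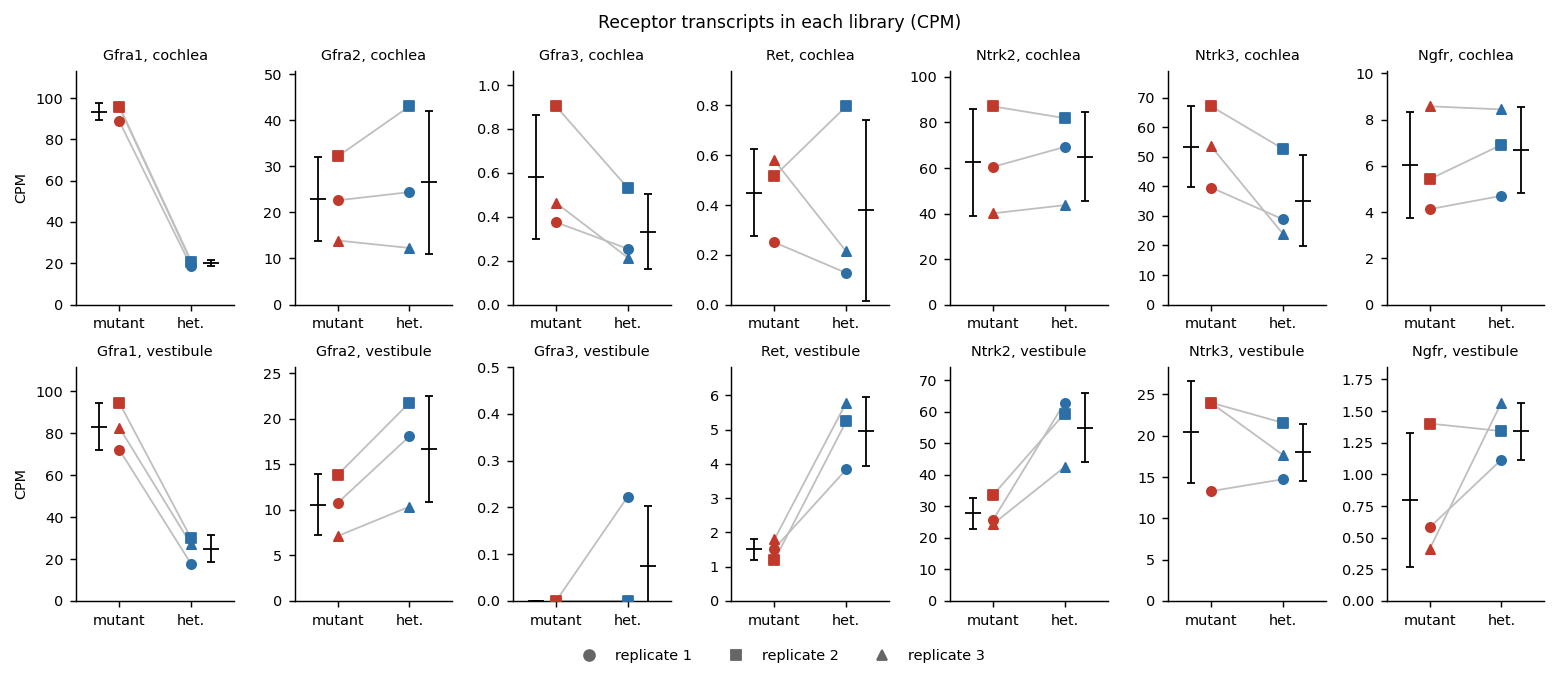
CPM of each receptor gene (vertical axes, linear, from 0 and scaled per panel) in each mutant and heterozygous library of the cochlea (upper row) and vestibule (lower row); symbols mark replicate numbers, grey lines join same-numbered libraries, and black bars are means ± SD of 3 libraries. Gfra1 is above 70 CPM in each of the 6 mutant libraries and below 30 CPM in each of the 6 heterozygous libraries.

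Gfra2, the neurturin co-receptor gene (chromosome 14, 70890120 to 70979838), varied more by replicate than by genotype in the cochlea. It was at 22.6, 32.1 and 13.9 CPM in mutants, against 24.4, 43.0 and 12.3 CPM in heterozygotes, with replicate 2 highest and replicate 3 lowest in both genotypes. The groups overlapped, and the log2 difference was -0.12 (SE 0.37). In the vestibule Gfra2 was at 10.8, 13.8 and 7.13 CPM in mutants, against 18.1, 21.8 and 10.4 CPM in heterozygotes. The groups overlapped there too, but the mutant was the lower of each of the 3 pairs, by -0.70 to -0.48 on the log2 scale, with a group difference of -0.60 (SE 0.32, or 0.15 with the replicate number as a block).

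The balance of these 2 co-receptor genes is described next. It recombines the values above, so it restates their differences and carries no test. Per kilobase of annotated exon, Gfra1 exceeded Gfra2 in each mutant library, by 1.92 to 4.46 times in cochlear and 4.33 to 7.50 times in vestibular libraries. In heterozygotes the same ratio of levels per kilobase was 0.311 to 1.12 for cochleae and 0.634 to 1.69 for vestibules, below the mutant range in each organ. Gfra1 made up 64.7% to 80.8% of the summed Gfra1, Gfra2 and Gfra3 level per kilobase in mutant cochleae, and 23.3% to 52.0% in heterozygous cochleae. In vestibules the share was 81.2% to 88.2% in mutants and 38.3% to 62.8% in heterozygotes. Gfra4, described below, is not in that sum, and its level per kilobase was not computed. In CPM it averaged 13.3 beside 10.6 for Gfra2 in mutant vestibules, and less than Gfra2 in every other group.

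Gfra3, the artemin co-receptor gene (chromosome 18, 34689898 to 34720387), was close to undetected. In the cochlea it was at 0.375, 0.903 and 0.463 CPM in mutants, against 0.254, 0.531 and 0.214 CPM in heterozygotes, from 14 and 8 reads in all. In the vestibule no read was assigned to it in any mutant library, which allows a level of up to 0.123 to 0.158 CPM per library (3 reads, counting error only). The heterozygous vestibules had 5 reads, all in replicate 1.

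Ret, the gene of the signalling receptor kinase shared by the GFRα proteins (chromosome 6, 118151745 to 118197718), was near the limit of detection in the cochlea and low in the vestibule. In the cochlea it was at 0.25, 0.516 and 0.579 CPM in mutants, against 0.127, 0.797 and 0.214 CPM in heterozygotes, from 11 and 9 reads. No difference was detectable at that depth. In the vestibule Ret was at 1.53, 1.19 and 1.80 CPM in mutants, against 3.84, 5.24 and 5.79 CPM in heterozygotes. The 3 mutant libraries all lay below the 3 heterozygous libraries, at 101 and 381 reads in all. Means were 1.51 ± 0.307 CPM in mutants and 4.96 ± 1.01 CPM in heterozygotes (SD, n = 3 each), a ratio of 0.304 and a log2 difference of -1.24 (SE 0.24). Gfra1 and Ret therefore differed in opposite directions in the same vestibular libraries.

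Ntrk2, the TRKB gene (chromosome 13, 58806569 to 59133970), overlapped between genotypes in the cochlea and was lower in mutant vestibules. In the cochlea it was at 60.5, 87.1 and 40.1 CPM in mutants, against 69.2, 81.9 and 43.7 CPM in heterozygotes. Replicate 3 was lowest in both genotypes, and the log2 difference was -0.08 (SE 0.26). In the vestibule Ntrk2 was at 25.6, 33.6 and 24.4 CPM in mutants, against 62.9, 59.5 and 42.5 CPM in heterozygotes. These groups did not overlap, and the mutant was the lower of each pair. Means were 27.8 ± 4.99 CPM in mutants and 55.0 ± 10.9 CPM in heterozygotes (SD, n = 3 each), a log2 difference of -0.95 (SE 0.20). GENCODE M21 lists 7 protein-coding Ntrk2 transcripts, with coding lengths of 1398 to 2463 bases. Values per gene do not separate full-length TRKB from the truncated forms without a kinase that glia are known to make.

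Ntrk3, the TRKC gene (chromosome 7, 78175959 to 78738012), was at 39.6, 67.1 and 53.5 CPM in mutant cochleae, against 28.8, 52.7 and 23.9 CPM in heterozygous cochleae. The ranges overlapped, yet the mutant was the higher of each of the 3 pairs, by 0.34 to 1.13 on the log2 scale. The group difference was 0.64 (SE 0.26, or 0.14 with the block), and 0.96 without heterozygote replicate 2, where limma called it. In the vestibule it was at 13.3, 24.0 and 24.0 CPM in mutants, against 14.7, 21.6 and 17.7 CPM in heterozygotes, with overlap and a log2 difference of 0.14 (SE 0.26). The ratio of Ntrk3 to Ntrk2 CPM was 0.655 to 1.34 in mutant and 0.417 to 0.643 in heterozygous cochleae, and 0.520 to 0.983 in mutant and 0.234 to 0.416 in heterozygous vestibules. That ratio was higher in every mutant library than in every heterozygous library of the same organ. The nearest cochlear libraries were mutant replicate 1 at 0.655 and heterozygote replicate 2 at 0.643. Genotypes were fully apart, in either direction, for 17.5% of single genes kept by the cochlear filter and 22.3% by the vestibular filter. The ratio recombines values of genes chosen on this contrast and carries no test.

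Ngfr, the p75 gene (chromosome 11, 95568818 to 95587735), was low in both organs. In the cochlea it was at 4.12, 5.42 and 8.57 CPM in mutants, against 4.70, 6.90 and 8.44 CPM in heterozygotes, which overlapped. Replicate 3 was highest in both genotypes, and the log2 difference was -0.14 (SE 0.29). In the vestibule it was at 0.580, 1.40 and 0.410 CPM in mutants, against 1.12, 1.34 and 1.57 CPM in heterozygotes, with overlap and a log2 difference of -0.42 (SE 0.29).

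In the cochlea 1 of 5 receptors tested was called higher, Gfra1, and 0 lower by limma, beside 1.9% of 17985 genes called higher and 2.52% lower. Among the 5, 2 were higher and 0 lower at an unadjusted p under 0.05, and edgeR and DESeq2 on the recovered reads each called 1 higher and 0 lower. In the vestibule 1 of 6 was called higher, Gfra1, and 2 lower, Ret and Ntrk2, beside 2.41% of 15595 genes higher and 1.09% lower. The groups did not overlap for 1 of 5 receptors in the cochlea and 3 of 6 in the vestibule, beside 17.5% and 22.3% of all genes tested. Because the receptors were chosen on this contrast, nothing is read from these counts. With the replicate block Ntrk3 was also called higher in the cochlea and Gfra2 lower in the vestibule, beside 4.21% of genes higher and 4.31% lower in the cochlea, and 10.5% higher and 12.8% lower in the vestibule. The Ntrk2 call was lost on leaving out any single library except heterozygote replicate 3 (log2 difference -1.12 to -0.84 over the 6 omissions), and the Ret call on leaving out any single library except heterozygote replicate 1 (-1.38 to -1.14). Both calls were lost without the filter, and that of Ntrk2 also by edgeR and after rescaling by median of ratios. Ret had -0.70 with a pseudocount of 4. The Gfra1 call held without each single library in both organs (2.10 to 2.20 for cochleae, 1.51 to 1.87 for vestibules). Without both replicate 2 libraries, or both replicate 3 libraries, none of the 3 vestibular calls was kept, beside 31 and 49 genes called in all. The difference between organs was not tested for these genes.

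**Figure D2:**
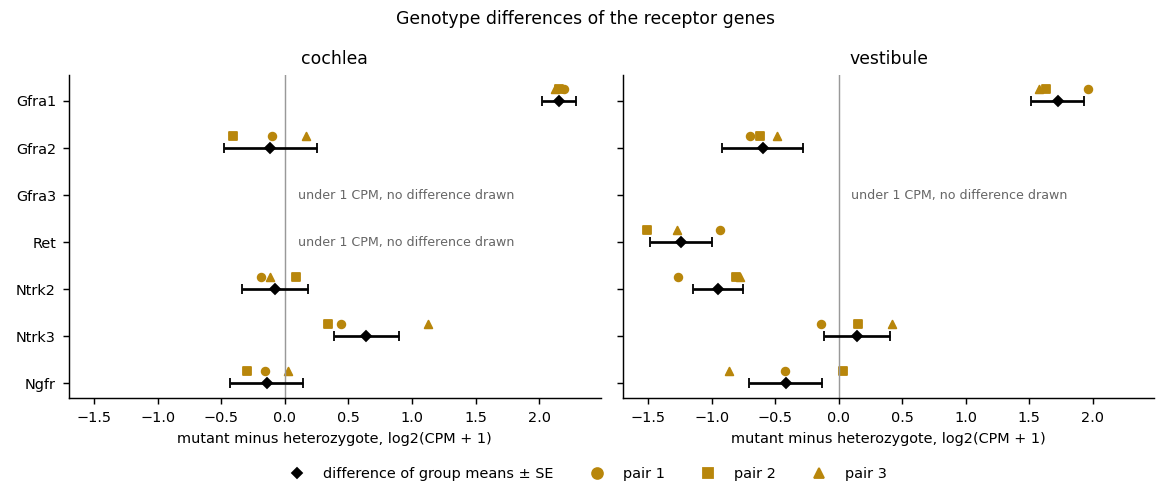
Mutant minus heterozygote difference on the log2(CPM + 1) scale (horizontal axis) for each receptor gene in the cochlea (left) and vestibule (right); black diamonds are differences of group means with limma's SE, and gold symbols are the 3 same-numbered pairs. Gfra1 lies at 2.16 and 1.72, while Ret and Ntrk2 lie at -1.24 and -0.95 in the vestibule.

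Levels were ordered between genes per kilobase of annotated exon, over all transcripts of a gene. In mutant cochleae Gfra1 led at 17.1 ± 0.748 CPM per kilobase, then Gfra2 at 6.47 ± 2.58 and Ntrk2 at 3.24 ± 1.22, followed by Ntrk3 at 1.77 ± 0.456 and Ngfr at 1.75 ± 0.664 (SD, n = 3 each). In heterozygous cochleae Gfra2 led at 7.51 ± 4.38 CPM per kilobase, then Gfra1 at 3.68 ± 0.262, Ntrk2 at 3.37 ± 1.01, Ngfr at 1.94 ± 0.545 and Ntrk3 at 1.17 ± 0.510. The differences between Ntrk3 and Ngfr in mutants, and between Gfra2, Gfra1 and Ntrk2 as neighbours in heterozygotes, were smaller than the larger of the SDs. In mutant vestibules the order was Gfra1 at 15.2 ± 2.04, Gfra2 at 2.99 ± 0.950, Ntrk2 at 1.44 ± 0.258, Ntrk3 at 0.677 ± 0.204, Ngfr at 0.231 ± 0.154 and Ret at 0.223 ± 0.0454 CPM per kilobase. In heterozygous vestibules it was Gfra2 at 4.73 ± 1.65, Gfra1 at 4.54 ± 1.16, Ntrk2 at 2.85 ± 0.567, Ret at 0.733 ± 0.149, Ntrk3 at 0.596 ± 0.114 and Ngfr at 0.389 ± 0.0653 CPM per kilobase. Gfra2 and Gfra1, and Ret and Ntrk3, were likewise within an SD of each other in those heterozygotes, as were Ngfr and Ret in the mutants. Gfra3 was below 0.3 CPM per kilobase in each group. Long untranslated exons count in the length of 30.2 kilobases for Ntrk3 and 19.3 for Ntrk2, which lowers their values on this scale.

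The receptor genes did not all vary together across libraries. After the mean of each organ was subtracted, Gfra2 and Ntrk2 had the highest correlation of any pair tested in both organs, with r = 0.88 over 12 libraries, and Gfra1 and Ntrk2 the lowest, with r = -0.49. These values describe libraries that share genotype, organ and depth. Among 13227 other genes compared in the same way, Cep152 (r = 0.98), Akap5 (0.98) and Camk4 (0.98) were most like Gfra1. Their genotype differences, in log2, were 1.45, 2.57 and 2.15 for cochleae and 1.04, 2.31 and 1.77 for vestibules. Tram2 (0.97), Rbms2 (0.97) and Zdhhc9 (0.96) were most like Gfra2, and Epas1 (0.95), Aplnr (0.93) and Aldh1a2 (0.93) most like Ntrk2. For Ntrk3 the list was led by the glial cadherin gene Cdh19 (0.90), then Crcp (0.87) and Ndst1 (0.85), and for Ngfr by Pygm (0.91), Igll1 (0.90) and Map4k1 (0.87).

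Several receptor genes are known from glia, neurons and vessels as well as from sensory epithelium, so markers of those cells were summed beside them. In the vestibule, where Ret and Ntrk2 were lower, 13 of 13 Schwann and satellite glia markers were detected, with sums of 410 to 479 CPM in mutants and 574 to 677 CPM in heterozygotes. The 10 mesenchyme markers summed to 1082 to 1481 CPM in mutants and 1954 to 2572 CPM in heterozygotes, and the 10 endothelium and pericyte markers to 75.7 to 121 CPM in mutants and 129 to 183 CPM in heterozygotes. The 6 melanocyte markers summed to 30.7 to 49.5 CPM in mutants and 57.2 to 72.5 CPM in heterozygotes. All of these sums were lower in each mutant library than in each heterozygous library, as were Ret and Ntrk2. Of all single genes tested in the vestibule, 22.3% had the 3 mutant libraries all on 1 side of the heterozygous libraries. Any link between these sums and the receptors was not tested. Limma called 1 glial, 2 mesenchyme, 0 endothelium and 0 melanocyte markers lower, beside 1.09% of all genes tested. With the block it called 9, 9, 7 and 3 lower, beside 12.8% of all genes. At an unadjusted p under 0.05 the counts lower were 8, 7, 6 and 3, and edgeR called 0, 1, 0 and 0 and DESeq2 5, 5, 0 and 0. Of all 15595 genes edgeR called 133 lower and DESeq2 423, and the share at an unadjusted p was not computed.

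The same lists overlapped between genotypes in the cochlea. Glial markers summed to 310 to 354 CPM in mutants and 298 to 380 CPM in heterozygotes, and mesenchyme markers to 1370 to 1488 CPM in mutants and 1270 to 1609 CPM in heterozygotes. Endothelium and pericyte markers summed to 267 to 307 CPM in mutants and 284 to 320 CPM in heterozygotes, and melanocyte markers to 23.5 to 29.7 CPM in mutants and 23.6 to 33.7 CPM in heterozygotes. Supporting cell markers overlapped in both organs, at 1271 to 1602 CPM in mutant and 1363 to 1536 CPM in heterozygous cochleae, and at 2136 to 2458 CPM in mutant and 1887 to 2717 CPM in heterozygous vestibules. Macrophage markers in the vestibule were at 7047 to 8268 CPM in mutants and 7415 to 9362 CPM in heterozygotes.

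The summed level of neuronal markers was higher in each mutant library, as was Gfra1. The 16 ganglion neuron markers summed to 2451 to 2486 CPM in mutant and 1401 to 1491 CPM in heterozygous cochleae, and to 2938 to 3032 CPM in mutant and 1567 to 1836 CPM in heterozygous vestibules. Of those tested, 9 of 16 in the cochlea and 7 of 14 in the vestibule were called higher, and 0 lower. The shares of all genes called higher were 1.9% and 2.41%. Pou4f1 was 1 of the 9 and is counted again among the transcription factors below. With the block the counts were 10 higher and 0 lower in the cochlea and 9 higher and 1 lower in the vestibule. Over all genes the block called 4.21% higher and 4.31% lower in the cochlea, and 10.5% and 12.8% in the vestibule. At an unadjusted p under 0.05 the marker counts were 10 and 1, and 8 and 0. EdgeR called 8 and 7 higher, DESeq2 9 and 8, and neither called any lower. Of all genes, 17985 in the cochlea and 15595 in the vestibule, edgeR called 301 and 391 higher and DESeq2 359 and 811. The neurofilament genes Nefm and Nefl had the highest CPM of the list in each organ, and some members had negative differences, such as Thy1 (-0.84) and Nefh (-0.70) in the cochlea and Isl1 (-0.37) in the vestibule. Hair cell markers were called lower for 9 of 15 in the cochlea, beside 2.52% of all genes. In the vestibule 2 were called higher and 1 lower, beside 2.41% and 1.09% of all genes. Gfi1 itself belongs to that list and was 1 of the 9 in the cochlea and the 1 called lower in the vestibule. None of the 8 marker lists held a gene at 0 in every library of an organ. The part of any of these cell types in the receptor values was not tested.

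**Figure D3:**
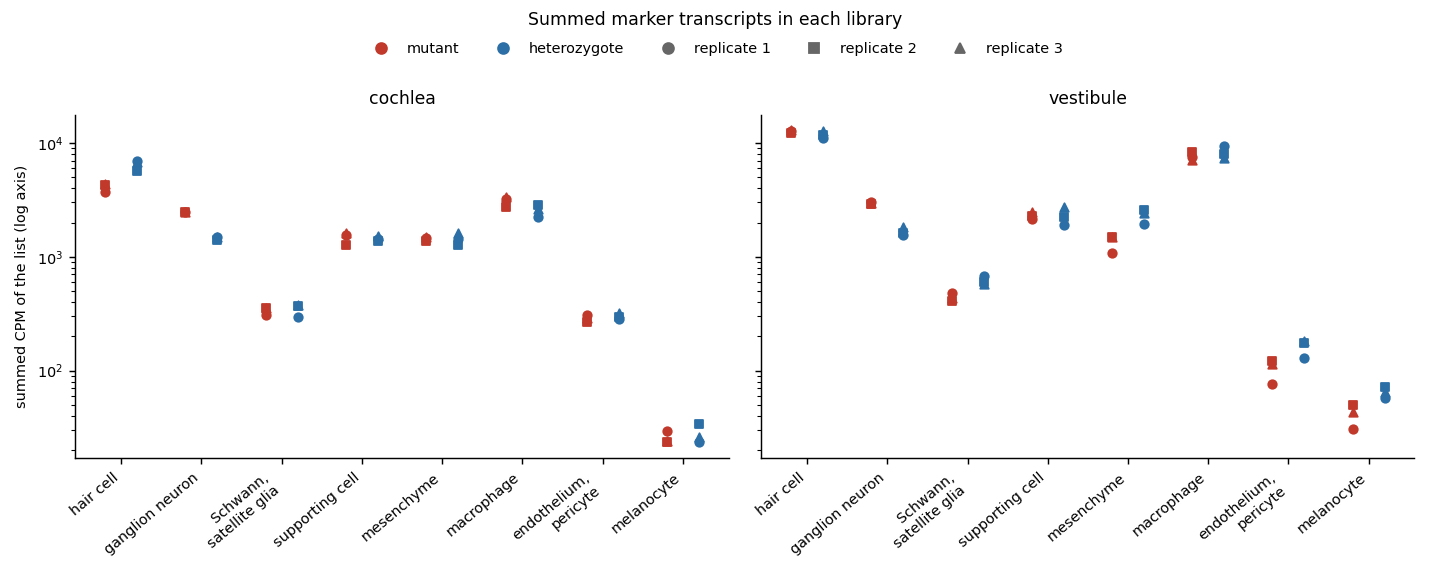
Summed CPM of 8 marker lists (log axis) in each mutant (red) and heterozygous (blue) library of the cochlea (left) and vestibule (right), with symbols for replicate numbers. In the vestibule the mutant libraries lie below the heterozygous libraries for glia, mesenchyme, endothelium and pericyte, and melanocyte markers, and above them for ganglion neuron markers.

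The ligands of these receptors were unequally represented. Bdnf, the TRKB ligand gene, was at 48.4, 36.3 and 45.5 CPM in mutant cochleae, against 85.2, 51.3 and 56.0 CPM in heterozygous cochleae (log2 difference -0.53, SE 0.19; limma BH-adjusted p = 0.196). In the vestibule it was at 283, 284 and 257 CPM in mutants, against 211, 215 and 225 CPM in heterozygotes (0.34, SE 0.11; limma BH-adjusted p = 0.171). The groups did not overlap in either organ, and with the replicate block Bdnf was called lower in the cochlea and higher in the vestibule. Its cochlear minus vestibular difference was -0.86 (SE 0.24; interaction term, limma BH-adjusted p = 0.0726). Ntf3, the TRKC ligand gene, was at 10.7, 6.32 and 11.6 CPM in mutant cochleae, against 5.97, 4.91 and 4.70 CPM in heterozygous cochleae (0.73, SE 0.26; limma BH-adjusted p = 0.183), and was called higher with the block. In the vestibule it was at 1.64, 0.892 and 0.983 CPM in mutants and 0.375 to 0.446 CPM in heterozygotes, too low to be tested. Ntf5, which encodes NT-4, stayed below 1 CPM in all 12 libraries.

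Among GDNF family ligands, Gdnf was at 1.37 to 3.23 CPM in mutant and 1.78 to 3.63 CPM in heterozygous cochleae, and at 0.580 to 2.05 CPM in mutant and 0.491 to 2.22 CPM in heterozygous vestibules. Artn, the artemin gene, was at 6.97, 5.65 and 6.06 CPM in mutant vestibules, against 12.8, 11.2 and 9.50 CPM in heterozygous vestibules (-0.75, SE 0.20; limma BH-adjusted p = 0.0979), and was called lower with the block and by DESeq2. In the cochlea Artn was at 0.927 to 1.55 CPM in mutants and 1.33 to 1.78 CPM in heterozygotes. Nrtn, the neurturin gene, was at 2.05 to 4.22 CPM in mutant and 3.27 to 4.51 CPM in heterozygous vestibules, and below 0.4 CPM in the cochlea. Pspn and Gdf15 stayed below 1 CPM in all libraries. Limma called 0 of 4 ligands tested in each organ. At an unadjusted p under 0.05, 1 was higher and 1 lower in each, edgeR called 0, and DESeq2 called 0 in the cochlea and 1 higher and 1 lower in the vestibule. Of all 15595 vestibular genes DESeq2 called 811 higher and 423 lower.

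Gfra4, the fourth GFRα gene and the persephin co-receptor, rose in both organs. It was at 5.50, 8.52 and 7.30 CPM in mutant cochleae, against 1.65, 1.46 and 2.14 CPM in heterozygous cochleae (log2 difference 1.55, SE 0.26; limma BH-adjusted p = 0.00228). In the vestibule it was at 14.5, 11.4 and 13.9 CPM in mutants, against 3.93, 2.64 and 4.15 CPM in heterozygotes (1.65, SE 0.22; limma BH-adjusted p = 0.00635). The mutant libraries lay above the heterozygous libraries in both organs, and both calls held without each single library. Its cochlear minus vestibular difference was -0.10 (SE 0.32). Without both replicate 2 libraries Gfra4 had 1.35 in the cochlea and 1.59 in the vestibule and was called in neither, nor in the vestibule without both replicate 3 libraries (1.71).

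Among the other co-receptor genes, Ncam1 and Slitrk5 rose in the cochlea and Slitrk3 and Lingo2 in the vestibule, and the organs differed by the test of that difference for Ncam1 and Slitrk3 only. Ncam1, the alternative GDNF co-receptor gene, was at 294, 721 and 446 CPM in mutant cochleae, against 185, 157 and 158 CPM in heterozygous cochleae (1.45, SE 0.24; limma BH-adjusted p = 0.00223). In the vestibule it was at 26.2, 36.3 and 29.0 CPM in mutants, against 28.3, 37.3 and 34.8 CPM in heterozygotes, and did not pass (-0.13, SE 0.18). The difference between organs was itself past the threshold (1.58, SE 0.34; interaction term, limma BH-adjusted p = 0.0185). By that test 3 of 118 pathway genes differed between the organs, Ncam1, Slitrk3 and Pou4f2, beside 3.14% of 14674 genes. Slitrk5, a known TRKB co-receptor gene, was at 18.1, 17.0 and 25.6 CPM in mutant cochleae, against 7.88, 6.77 and 10.7 CPM in heterozygous cochleae (1.17, SE 0.23; limma BH-adjusted p = 0.00763). That call was lost without both replicate 1 libraries (1.20) or both replicate 2 libraries (1.15). In the vestibule Slitrk5 had a difference of 0.88 (SE 0.23), which limma called with the block but not without it, and the difference between organs did not pass (0.29, SE 0.33; interaction term, limma BH-adjusted p = 0.767).

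Slitrk3, which encodes a synaptic adhesion protein, rose in the vestibule, at 12.9, 9.94 and 14.3 CPM in mutants, against 2.37, 3.10 and 2.62 CPM in heterozygotes (1.84, SE 0.22; limma BH-adjusted p = 0.00371). That call was lost without both replicate 2 (2.06) or both replicate 3 libraries (1.73). In the cochlea its groups overlapped (0.15, SE 0.15). Lingo2, a relative of the p75 partner gene Lingo1, rose in the vestibule, at 4.25 ± 0.798 CPM in mutants and 1.30 ± 0.290 CPM in heterozygotes (SD, n = 3 each), by 1.19 (SE 0.24; limma BH-adjusted p = 0.0356). The Lingo2 call was lost on leaving out any single library (1.07 to 1.26, adjusted p up to 0.156). In the cochlea Lingo2 was at 8.90 ± 1.69 CPM in mutants and 4.79 ± 0.609 CPM in heterozygotes (SD, n = 3 each), a difference of 0.76 (SE 0.23; limma BH-adjusted p = 0.104) that was called with the block. Its difference between organs did not pass (-0.43, SE 0.32; interaction term, limma BH-adjusted p = 0.637).

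Of 143 other genes of these pathways in 8 lists, 124 were tested in the cochlea, and 10 rose and 0 fell (limma), or 8.06%, beside 4.41% of all genes. At an unadjusted p under 0.05, 18 were higher and 5 lower, edgeR called 8 higher and 1 lower, DESeq2 10 and 0, and the block 16 and 5. Over all 17985 genes edgeR called 301 higher and 512 lower, DESeq2 359 and 596, and the block 4.21% and 4.31%. In the vestibule 122 were tested, and 5 rose and 0 fell (limma), or 4.10%, beside 3.5% of all genes. There 15 were higher and 12 lower at an unadjusted p under 0.05, edgeR called 8 and 0, DESeq2 11 and 2, and the block 20 and 17. Over all 15595 genes edgeR called 391 higher and 133 lower, DESeq2 811 and 423, and the block 10.5% and 12.8%. The share of all genes at an unadjusted p under 0.05 was not computed, so such counts stand without it throughout. The median log2 difference of the pathway genes was 0.10 in the cochlea and -0.07 in the vestibule, beside 0.05 and -0.06 over all genes tested. These shares and medians describe the lists, and no list was set against random genes.

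Adaptors and p75 signalling genes accounted for 4 of the 10 cochlear rises. Shc4, an SHC adaptor gene, was at 113, 137 and 109 CPM in mutant cochleae, against 70.6, 64.8 and 66.2 CPM in heterozygous cochleae (0.82, SE 0.13; limma BH-adjusted p = 0.00167). Grb10, an adaptor that binds RET, had means of 572 ± 53.6 CPM in mutants and 385 ± 54.9 CPM in heterozygotes (SD, n = 3 each; 0.57, SE 0.14; limma BH-adjusted p = 0.0315). Maged1, which encodes the p75-binding protein NRAGE, rose in both organs, by 0.65 (SE 0.16; limma BH-adjusted p = 0.0356) in the cochlea and 0.80 (SE 0.14; 0.0205) in the vestibule. Mapk10, the neuronal JNK3 gene, was at 43.5 ± 4.13 CPM in mutant and 25.8 ± 4.70 CPM in heterozygous cochleae (SD, n = 3 each; 0.74, SE 0.16; limma BH-adjusted p = 0.0185). The Grb10 call was lost without mutant replicate 1 or 3 or heterozygote replicate 1 or 2 (0.46 to 0.66 over the 6 omissions). The Mapk10 call was lost without mutant replicate 2 or heterozygote replicate 1 (0.65 to 0.88). The Maged1 call was lost in the cochlea without any single library except heterozygote replicate 3 (0.50 to 0.84), and in the vestibule without mutant replicate 2 or 3 or heterozygote replicate 2 or 3 (0.68 to 0.87). Without both replicate 2 libraries the Shc4 call was lost (0.70).

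Limma called 0 of 22 RAS, MAPK and PI3K core genes in each organ. At an unadjusted p under 0.05, 1 was higher in each organ, edgeR and DESeq2 each called 0 in the cochlea and 1 higher in the vestibule, and the block called 1 and 2 higher. Of all genes the block called 4.21% higher in the cochlea and 10.5% in the vestibule. Of all 15595 vestibular genes edgeR called 391 higher and DESeq2 811. The list of feedback inhibitors, ETS factors and activity targets, genes known to respond to receptor kinase signalling, had a median log2 difference of -0.41 over 16 genes in the vestibule and -0.04 over 15 in the cochlea. Limma called 0 of them in each organ. In the vestibule 1 was higher and 6 lower at an unadjusted p under 0.05, edgeR called 0 and DESeq2 1 lower. DESeq2 called 423 of all 15595 genes lower there. With the block 1 was higher and 7 lower in the vestibule, beside 23.3% of all genes called there in either direction, and 0 higher and 1 lower in the cochlea, where 1 was lower at an unadjusted p under 0.05 and edgeR and DESeq2 called 0. Over all cochlear genes the block called 4.31% lower.

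The 7 vestibular genes called lower with the block were Spry1, Spry4, Dusp6, Etv4, Egr1, Egr2 and Nptx1, named here after their values were seen. Dusp6, an ERK phosphatase gene, was at 169, 140 and 115 CPM in mutants, against 211, 173 and 166 CPM in heterozygotes, a log2 difference of -0.38 (SE 0.17). Egr2 was at 1.69, 1.61 and 1.88 CPM in mutants, against 3.53, 4.32 and 4.19 CPM in heterozygotes, without overlap (-0.87, SE 0.22). Egr2 is also a Schwann cell gene and belongs to the glial marker list, whose sum was lower in the same libraries. Arc, an activity-regulated gene, was the 1 called higher with the block, at 8.39, 6.54 and 4.01 CPM in mutants and 3.17, 4.07 and 3.17 CPM in heterozygotes.

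Among 20 transcription factors known from sensory neurons or the otic lineage, some of which act on TRK or RET genes, 3 of 13 tested rose in the cochlea and 1 of 11 in the vestibule, beside 1.9% and 2.41% of all genes called higher. None was called lower by limma, edgeR or DESeq2 in the cochlea, where edgeR called 1 higher, DESeq2 3 and the block 4, and 4 were higher and 0 lower at an unadjusted p under 0.05. In the vestibule edgeR and DESeq2 each called 2 higher and 0 lower, the block 4 higher and 1 lower, and 3 were higher and 2 lower at an unadjusted p under 0.05. Over all genes the block called 4.21% higher in the cochlea, and 10.5% higher and 12.8% lower in the vestibule. EdgeR called 301 of 17985 and 391 of 15595 genes higher, and DESeq2 359 and 811. Neurod1, a neuronal bHLH gene, was at 115 ± 56.0 CPM in mutant and 0.850 ± 0.851 CPM in heterozygous cochleae (SD, n = 3 each; limma BH-adjusted p = 6.65e-07). Pou4f1, a POU factor of sensory neurons, was at 15.2, 27.2 and 13.2 CPM in mutant cochleae, against 3.68, 10.5 and 5.23 CPM in heterozygous cochleae (1.43, SE 0.33; limma BH-adjusted p = 0.0245). Insm1, a zinc finger factor of neurons and outer hair cells, had a cochlear difference of 1.06 (SE 0.27; limma BH-adjusted p = 0.0428). The Pou4f1 call was lost without mutant replicate 1 or 2 or heterozygote replicate 1 (1.13 to 1.79 over the 6 omissions), and the Insm1 call without any single library except mutant replicate 3 (0.70 to 1.36). Pou4f2, a relative of Pou4f1, rose in the vestibule, at 11.8, 7.64 and 8.03 CPM in mutants, against 0.804, 1.22 and 0.375 CPM in heterozygotes (2.50, SE 0.28; limma BH-adjusted p = 0.00286), a call lost without both replicate 2 (2.77) or both replicate 3 libraries (2.39). In the cochlea its groups overlapped (-0.18, SE 0.28). The Pou4f1 and Insm1 calls were also lost by edgeR and without the filter, and that of Insm1 after rescaling. Without the filter the Grb10, Lingo2 and both Maged1 calls were lost too.

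**Figure D4:**
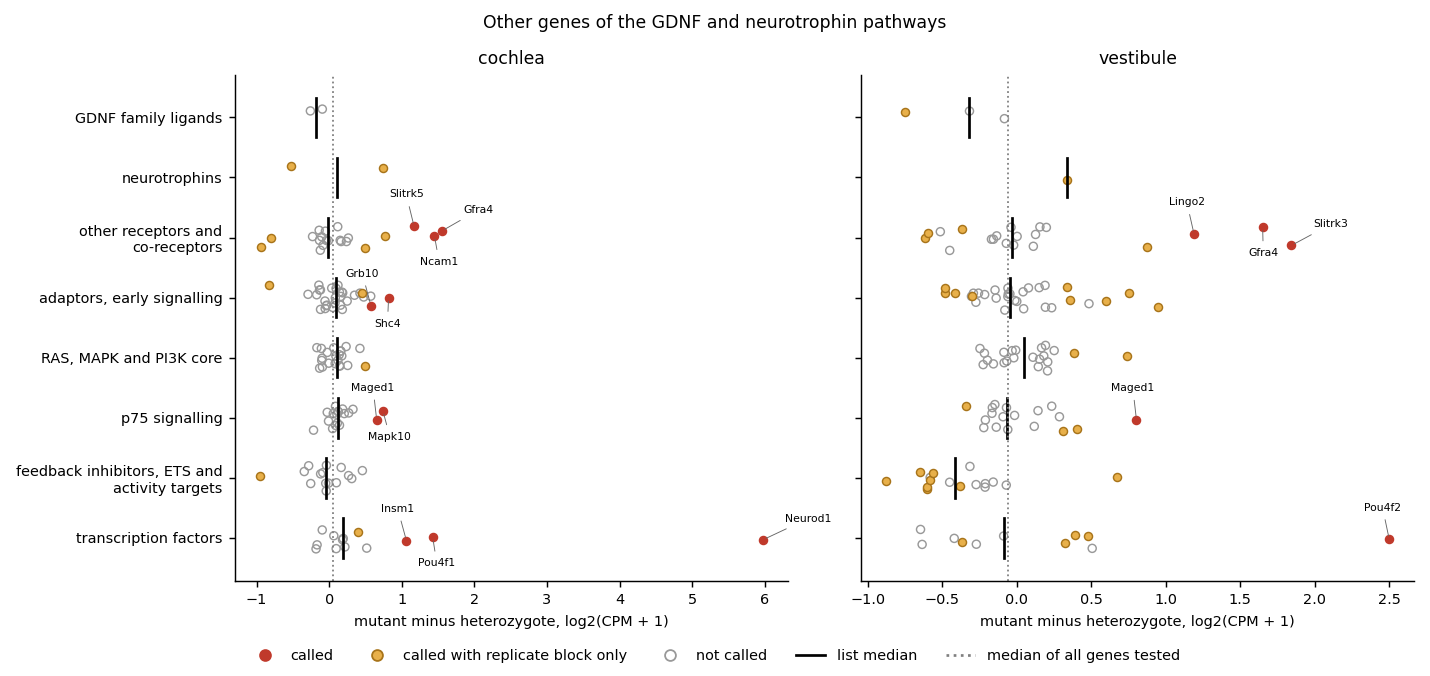
Mutant minus heterozygote difference on the log2(CPM + 1) scale (horizontal axes, scaled per organ) for each tested gene of 8 pathway lists; red points were called by limma at an adjusted p under 0.05, gold points with the replicate block only, bars are list medians and the dotted line is the median of all genes tested. Gfra4 and Maged1 are red in both organs, and the vestibular median of the feedback inhibitor, ETS and activity target list lies at -0.41.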

How the data were processed

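The authors deposited CPM, 1 table per library, scaled to the total of the library; the submitters' processing notes list TopHat, without a version, and GRCm38. The counter, strand setting and annotation are not given in the sources used here. Dividing a deposited CPM by that of a single read gave whole numbers for 100% of values (tolerance 1e-06), so reads were recovered. Totals were 7531518 to 9363796 reads for cochlear and 18951026 to 29370267 for vestibular libraries, with 0.119% to 0.729% outside the listed genes. Each organ was fitted on log2(CPM + 1) by limma 3.58.1 with a trend (R 4.3.3), with Benjamini-Hochberg adjustment over all genes tested. Organs were compared by an interaction of genotype and organ over 14674 genes tested in both. Fits on recovered reads used edgeR 4.0.16, whose quasi-likelihood test on them called 813 genes in the cochlea and 524 in the vestibule, and DESeq2 1.42.0. The fits were tested on simulated data. Coordinates and exon lengths came from GENCODE M21 (GRCm38), and promoters from RefSeq (GRCm38.p6). Figures used matplotlib 3.10.9.

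The receptors and all lists were chosen with earlier results of these data known. Named pathway genes were every called gene (up to 6 per list and organ) and the ligands; some items are not reported here. Same-numbered libraries deviated together across genes (r = 0.23, 0.23 and 0.42 in the cochlea and 0.77, 0.51 and 0.60 in the vestibule), each above 0.1, so the replicate number was taken to pair them. In the vestibule mutant 3 with heterozygote 2 (0.32) and mutant 2 with heterozygote 3 (0.22) were above 0.1 too, each below the r of the same-numbered libraries. The labels call the triplicates biological and do not say what a number shares. The main fits, the main interaction test and the fits leaving out libraries did not use this pairing. A fit with the replicate number as a block is given as an alternative. With this block 1532 genes were called in the cochlea and 3634 in the vestibule, against 794 and 546 without it. Alternatives were other pseudocounts, filters and scaling, the block, count models, and leaving out libraries.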

Additional observations from a re-analysis of the deposited data

Results flagged for a closer look

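Among the pathway genes, 3 had genotype differences that themselves differed between the organs by the limma interaction term. Ncam1 had a cochlear minus vestibular log2 difference of 1.58, from 1.45 in the cochlea and -0.13 in the vestibule. Slitrk3 had -1.69, from 0.15 in the cochlea and 1.84 in the vestibule (interaction, Benjamini-Hochberg adjusted p = 0.00175). Pou4f2 had -2.68, from -0.18 in the cochlea and 2.50 in the vestibule (interaction, Benjamini-Hochberg adjusted p = 0.00117). Library kit differed with organ, and its part in these differences was not tested.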

How the results depend on the processing

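With the replicate number as a block, calls came to 1532 over all genes, 21 over pathway genes and 2 over receptors in the cochlea, and to 3634 and 37 in the vestibule over all and pathway genes, with 22 pathway genes in the interaction. Without the filter, pathway calls were 6 in the cochlea and 3 in the vestibule, with 358 vestibular genes and 1 receptor called. Rescaling by median of ratios gave 8 vestibular pathway calls and 5 in the interaction, edgeR gave 8, and DESeq2 gave 13 and 1234 over all vestibular genes. Without both replicate 1 libraries 366 genes were called in the cochlea, with 4 of the pathways, and 863 in the vestibule. Without both replicate 2 libraries there were 379 and 3 in the cochlea, and 31 genes, 0 pathway genes and 0 receptors in the vestibule. Without both replicate 3 libraries the vestibule had 49, 0 and 0. Leaving out single libraries gave 546 to 801 genes, 5 to 10 pathway genes and 1 to 2 receptors in the cochlea, and 226 to 522, 3 to 5 and 1 to 2 in the vestibule; the causes were not tested. Over the 17 alternatives per organ, log2 differences ran from 2.01 to 2.20 (cochlea) and 1.51 to 1.87 (vestibule) for Gfra1, from -1.12 to -0.79 for vestibular Ntrk2 and, over the 16 that kept it, from -1.68 to -0.70 for vestibular Ret. Ret lay nearest to 0 with a pseudocount of 4. Cochlear Gfra2 (-0.56 to 0.30), Ntrk2 (-0.35 to 0.21) and Ngfr (-0.39 to 0.06) took both signs. Depth limits Gfra3 and cochlear Ret, each under 1 CPM.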
